A study of Homo sapiens with 12 samples.

Results

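The enzymes that make and balance the building blocks of DNA were followed across 4 groups of prostate cancer cells. Of the 34643 gene symbols in the table of estimated counts, 9 were taken by name: RRM1, RRM2 and RRM2B (the subunits of ribonucleotide reductase), TYMS, TK1, DTYMK and DUT (supply of thymidine nucleotides), CTPS1 (the cytosine branch) and DCK (salvage of deoxynucleosides). LNCaP is an androgen-sensitive human prostate adenocarcinoma line. All cells carried a lentiviral pLKO.1-puro construct expressing an shRNA from the U6 promoter, either scrambled (sh_scramble) or directed at TMEFF2 (sh_TMEFF2), and were selected in 1 ug/ml puromycin. About 2.5 weeks after transduction all cells spent 24 h in medium with 10% charcoal-stripped serum, which is low in androgen, and were then given 10 nM dihydrotestosterone (DHT, an androgen) or ethanol vehicle for 24 h. There were 3 libraries in each group, and the groups are called sh_scramble or sh_TMEFF2 with -DHT for vehicle and +DHT for the androgen. The 3 repeats of a group were separate treatments and RNA extractions from 2 transductions, the labels do not say which repeat came from which transduction, and the sequence of the shRNA used for sequencing is not given there. The cells of a line were a selected population from a transduction, so differences between the lines rest on those 2 transductions.

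Ribonucleotide reductase converts ribonucleotides into deoxyribonucleotides and is the main source of DNA precursors. Its large subunit RRM1 carries the catalytic site and pairs with a small subunit, either RRM2, which is made mainly in S phase, or RRM2B, which p53 can induce and which supplies precursors for DNA repair and mitochondrial DNA outside S phase. Thymidine triphosphate needs further steps, because TYMS methylates dUMP to dTMP, TK1 makes dTMP from salvaged thymidine, DTYMK phosphorylates dTMP, and DUT removes dUTP so that uracil is kept out of DNA while supplying dUMP. CTPS1 makes CTP from UTP, and DCK phosphorylates deoxycytidine, deoxyadenosine and deoxyguanosine taken up or recovered by the cell.

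The libraries held 19450866 to 22612046 counts (median 21194622), and the 9 enzymes had 521 to 6462 counts in a library. Of 4 markers of luminal prostate cells (KLK3, HOXB13, FOLH1 and TMPRSS2), none fell below 79.8 CPM (counts scaled to a common library size) in any library. Their summed level was 5030 to 5170 CPM in sh_scramble -DHT, 9770 to 11300 CPM in sh_scramble +DHT, 2980 to 3530 CPM in sh_TMEFF2 -DHT and 3740 to 5010 CPM in sh_TMEFF2 +DHT. The 6 markers of leukocytes, endothelium, fibroblasts and basal cells summed to 16.6 to 42.8 CPM over the libraries, and the basal keratin KRT5 was at 0 in all. The luminal markers moved between the groups too, but not together. With DHT in sh_scramble the mean of KLK3 rose from 1925 to 7495 CPM and that of TMPRSS2 from 142.9 to 1120 CPM. FOLH1 fell there from 2566 to 1392 CPM and HOXB13 from 484.3 to 376.7 CPM. In sh_TMEFF2 -DHT the means were 356.2 CPM for KLK3, 147.5 CPM for TMPRSS2, 2277 CPM for FOLH1 and 457.9 CPM for HOXB13. The part of these markers in the results below was not tested. TMEFF2, the targeted gene, averaged 85.0 ± 16.0 CPM in sh_scramble -DHT, 153.3 ± 31.4 CPM in sh_scramble +DHT, 63.2 ± 21.7 CPM in sh_TMEFF2 -DHT and 115.6 ± 26.0 CPM in sh_TMEFF2 +DHT (SD, n = 3). It was lower in sh_TMEFF2 by 0.43 (log2 -0.43) without DHT and by 0.41 (log2 -0.41) with DHT. The libraries of the lines overlapped, and neither difference passed the test (edgeR adjusted p = 0.503 and 0.304). The study reports silencing of TMEFF2 in LNCaP cells by Western blot and also measured its mRNA there. Protein cannot be read from these libraries.

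In the control line, DHT raised RRM2 and CTPS1 and lowered RRM2B (14.4% of all genes tested were called higher and 12.6% lower). In sh_TMEFF2, DHT raised 7 of the 9 genes, against 7.84% of all genes, by 1.40-fold to 2.31-fold. These were RRM1, RRM2, TYMS, DUT, DTYMK, CTPS1 and DCK, and DESeq2 added TK1. Without DHT none of the 9 passed edgeR's test between the lines (1.12% of all genes did). Of the 9, 3 had an unadjusted p under 0.05 (13.5% of all genes) and DESeq2 called 1. With DHT, RRM1 and TK1 were higher in sh_TMEFF2 (6.93% of all genes were). The fitted DHT response was higher in sh_TMEFF2 than in sh_scramble for all 9 genes (less negative for RRM2B), as for 50.9% of all genes. None of the 9 differences passed edgeR's test (4.94% of all genes did). Of these, 4 had an unadjusted p under 0.05 (17.5% of all genes) and 1 was called by DESeq2. Levels are given below in CPM with trimmed mean of M-values (TMM) scaling, fold changes on the log2 scale with their standard error (SE), and p-values from edgeR's quasi-likelihood test adjusted by Benjamini-Hochberg over the 15419 genes tested, with 0.05 as the limit. All 9 genes passed the filter on low counts. They were chosen with earlier results of these data known, so the shares over all genes are given as a description. RRM2 is also one of the TMCC11 genes that the study chose with these libraries, so its response is not independent evidence of that choice.

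**Figure D1:**
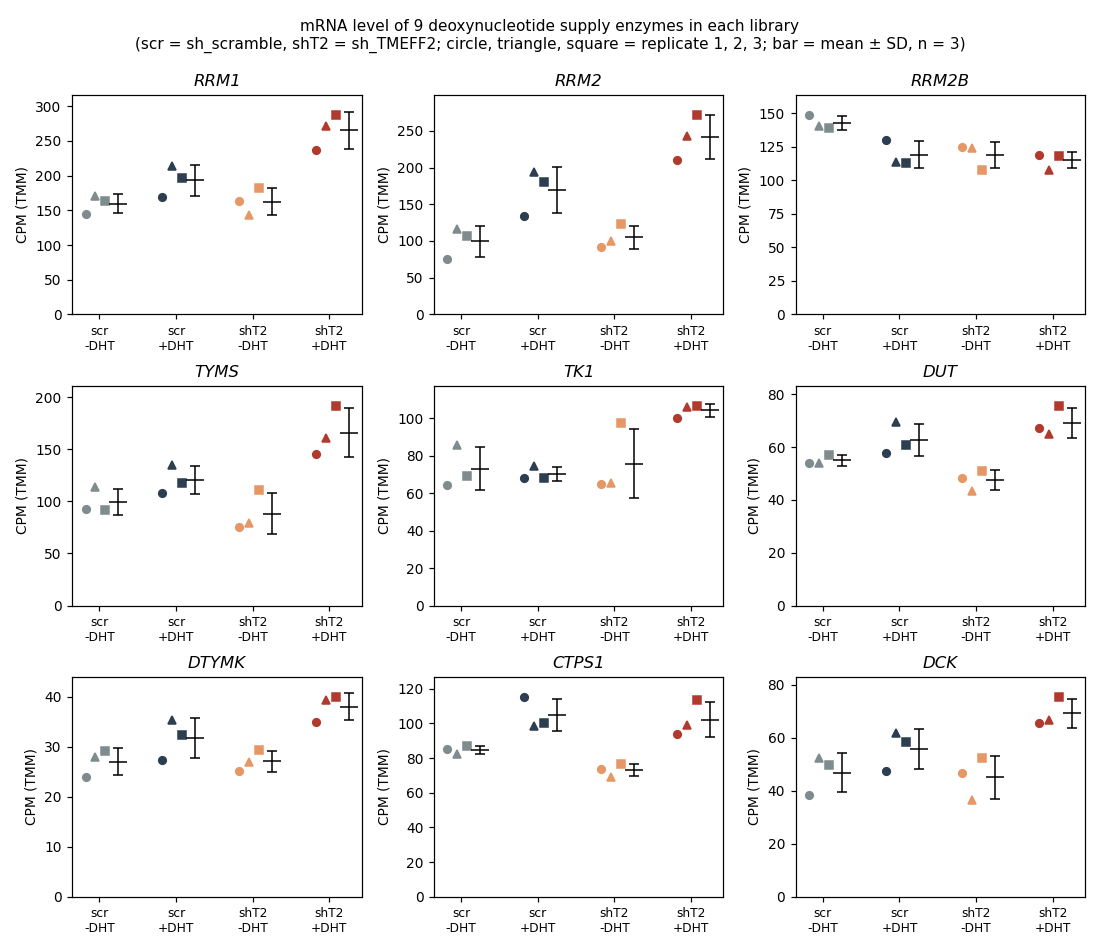
Level of each gene in CPM (vertical axes, from 0) in the 12 libraries, by group, with the mean and SD of the 3 libraries beside the points. The sh_TMEFF2 +DHT libraries lay above all others for RRM1, RRM2, TYMS, TK1 and DCK, and above the sh_TMEFF2 -DHT libraries for every gene except RRM2B.

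The ribonucleotide reductase subunits did not move together. RRM1 was at 144.0, 170.3 and 163.6 CPM in the sh_scramble -DHT libraries and at 169.0, 213.9 and 196.0 CPM in sh_scramble +DHT, so these groups overlapped. In sh_TMEFF2 it was at 163.5, 142.8 and 181.7 CPM without DHT and at 236.3, 271.4 and 287.6 CPM with DHT, which put the 3 sh_TMEFF2 +DHT libraries above the other 9. The catalytic subunit rose in sh_TMEFF2 by 0.70 on the log2 scale (1.63-fold, SE 0.11, adjusted p = 0.00204), while the value in sh_scramble was 0.28 (SE 0.11, adjusted p = 0.083). With DHT, RRM1 was 1.37-fold higher in sh_TMEFF2 than in sh_scramble (log2 0.46, SE 0.11, adjusted p = 0.0136), and without DHT the lines were 0.03 apart (adjusted p = 0.95). By group mean it was lowest in sh_scramble -DHT, then in sh_TMEFF2 -DHT, then in sh_scramble +DHT and highest in sh_TMEFF2 +DHT, and only the step to the last was free of overlap.

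RRM2, the small subunit of dividing cells, had the largest DHT response of the 9 in both lines. Its levels were 75.4, 116.4 and 106.3 CPM in sh_scramble -DHT and 134.1, 194.5 and 180.0 CPM in sh_scramble +DHT, without overlap. They were 91.3, 100.3 and 122.6 CPM in sh_TMEFF2 -DHT and 210.7, 242.5 and 271.7 CPM in sh_TMEFF2 +DHT, again without overlap. RRM2 rose 1.71-fold in sh_scramble (log2 0.77, SE 0.17, adjusted p = 0.00568) and 2.31-fold in sh_TMEFF2 (log2 1.21, SE 0.18, adjusted p = 0.00126). With DHT all 3 sh_TMEFF2 libraries were above all 3 sh_scramble libraries, a 1.43-fold difference (log2 0.51, SE 0.17) that missed the limit (adjusted p = 0.0633). The -DHT groups overlapped and both lay below sh_scramble +DHT. The difference between the lines with DHT passed under 7 of 8 other analysis settings and in 2 of 12 fits with a library left out, with adjusted p between 0.00249 and 0.206 over all settings and left-out libraries.

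RRM2B, the small subunit that p53 can induce, lies on the minus strand of chromosome 8 of GRCh38, from 102204502 to 102238961. It went the other way in the control line. It was at 148.8, 140.5 and 139.2 CPM in sh_scramble -DHT and at 130.4, 113.8 and 113.0 CPM in sh_scramble +DHT, so every DHT library was lower, as for 20.5% of all genes tested. This 1.20-fold fall (log2 -0.26, SE 0.08, adjusted p = 0.0252) was the only one among the 9 genes, and it missed the limit when sh_scramble -DHT replicate 1, sh_scramble +DHT replicate 2 or sh_scramble +DHT replicate 3 was left out (highest adjusted p = 0.099). In sh_TMEFF2 it stayed between 107.6 and 124.6 CPM in the 6 libraries and the DHT response was -0.04 (SE 0.08, adjusted p = 0.774). Without DHT its 3 sh_TMEFF2 libraries, at 124.6, 124.1 and 107.6 CPM, were all below the 3 of sh_scramble, with a value of -0.27 (SE 0.08) that did not pass in edgeR (adjusted p = 0.138) and passed in DESeq2 (adjusted p = 0.0394). The group means ran from sh_TMEFF2 +DHT through sh_TMEFF2 -DHT and sh_scramble +DHT to sh_scramble -DHT, and only the last stood clear of its neighbour. Because these are bulk samples, a larger share of cells in a phase or state and more RNA per cell cannot be told apart for any of these genes.

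**Figure D2:**
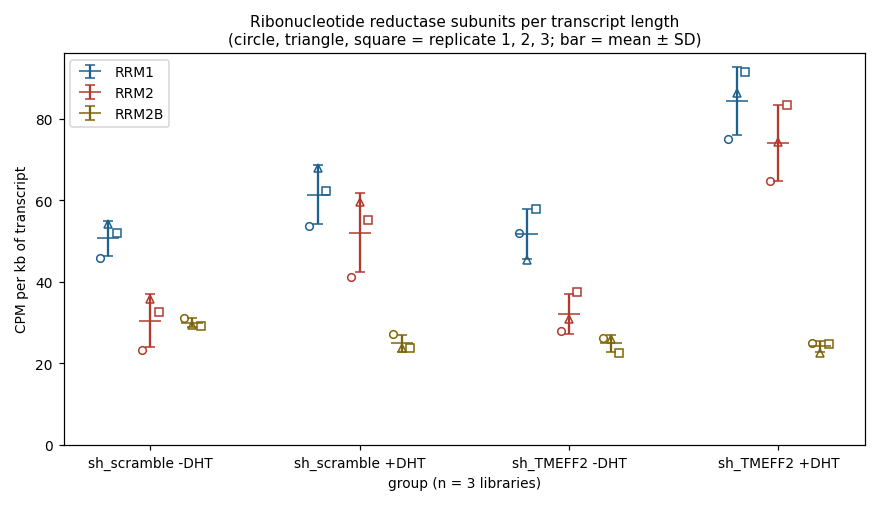
Level of the 3 ribonucleotide reductase subunits in CPM per kb of transcript (vertical axis, from 0) in each library, with the group mean and SD. RRM2 and RRM2B were about level in sh_scramble -DHT, at means of 30.5 and 29.9 CPM per kb, and furthest apart in sh_TMEFF2 +DHT, at 74.2 and 24.1 CPM per kb.

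Per kb of the representative transcript, RRM1 was the most abundant subunit in every group, at means of 50.7 to 84.4 CPM per kb. The ratio of RRM2 to RRM2B per length was 0.743, 1.21 and 1.12 in the sh_scramble -DHT libraries and 1.51, 2.50 and 2.33 in sh_scramble +DHT. It was 1.07, 1.19 and 1.67 in sh_TMEFF2 -DHT and 2.59, 3.29 and 3.36 in sh_TMEFF2 +DHT. The S phase subunit therefore went from 1.03 ± 0.25 times the level of RRM2B without DHT to 2.12 ± 0.53 times its level with DHT in the control line, and from 1.31 ± 0.32 to 3.08 ± 0.43 times in sh_TMEFF2 (SD, n = 3), with no overlap in either line or between the lines with DHT. The ratio of RRM2 to RRM1 rose with DHT from 0.597 ± 0.08 to 0.843 ± 0.07 in sh_scramble and from 0.622 ± 0.07 to 0.878 ± 0.03 in sh_TMEFF2, without overlap within a line. Between the lines this ratio overlapped at both DHT levels. Two-sided exact permutation tests of 3 ratios in 4 comparisons gave p = 0.1, the smallest they can give here, for each comparison without overlap (adjusted p = 0.15 over the 12 tests).

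Of the thymidylate genes, TYMS, DUT and DTYMK were called higher with DHT in sh_TMEFF2. TYMS, the methylating enzyme and the target of fluoropyrimidine drugs, was at 92.9, 113.7 and 92.0 CPM in sh_scramble -DHT, at 108.0, 135.0 and 117.8 CPM in sh_scramble +DHT, at 75.2, 78.9 and 110.7 CPM in sh_TMEFF2 -DHT and at 145.1, 160.9 and 191.6 CPM in sh_TMEFF2 +DHT. The last group lay above the other 9 libraries, and each of the other groups overlapped its neighbour in the order of means. TYMS rose 1.88-fold with DHT in sh_TMEFF2 (log2 0.91, SE 0.15, adjusted p = 0.00281), and its value in sh_scramble was 0.27 (SE 0.15, adjusted p = 0.205). With DHT it was 1.38-fold higher in sh_TMEFF2 (log2 0.46, SE 0.15), just outside the limit (adjusted p = 0.0546) and within it under 7 of 8 other settings. It passed in 4 of 12 fits with a library left out, with adjusted p up to 0.169. The gene ENOSF1, on the opposite strand and overlapping TYMS, was at 68.0 to 89.5 CPM, and with strand not stated its reads and those of TYMS may not have been fully separated.

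TK1, the salvage kinase, did not pass with DHT in either line in the main edgeR test. It was at 64.0, 85.8 and 69.3 CPM in sh_scramble -DHT and at 68.0, 74.2 and 67.8 CPM in sh_scramble +DHT, a value of -0.06 (SE 0.14, adjusted p = 0.799). In sh_TMEFF2 -DHT it was at 64.8, 65.2 and 97.2 CPM, with replicate 3 far above the others, and in sh_TMEFF2 +DHT at 100.0, 105.9 and 106.4 CPM, above all 9 other libraries. The DHT response in sh_TMEFF2 was 1.38-fold (log2 0.46, SE 0.14) and missed the limit (adjusted p = 0.0543). This response passed under 5 of 8 other settings, DESeq2 among them (adjusted p = 0.0114), and in 2 of 12 fits with a library left out. Its adjusted p lay between 0.00206 and 0.193 over all of these. Without sh_TMEFF2 -DHT replicate 3 the response was 0.69 (SE 0.11, adjusted p = 0.00206). With DHT, TK1 was 1.49-fold higher in sh_TMEFF2 than in sh_scramble (log2 0.57, SE 0.14, adjusted p = 0.0173), the largest of the 9 differences between the lines.

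DUT, the dUTPase, was at 53.9, 53.8 and 57.2 CPM in sh_scramble -DHT, at 58.0, 69.4 and 60.7 CPM in sh_scramble +DHT, at 48.3, 43.3 and 50.9 CPM in sh_TMEFF2 -DHT and at 67.4, 64.9 and 75.6 CPM in sh_TMEFF2 +DHT. Its order of means was sh_TMEFF2 -DHT, sh_scramble -DHT, sh_scramble +DHT and sh_TMEFF2 +DHT, and only the +DHT groups overlapped. DUT rose 1.46-fold in sh_TMEFF2 (log2 0.54, SE 0.09, adjusted p = 0.00228), while the value of 0.19 in sh_scramble did not pass (SE 0.09, adjusted p = 0.133). DTYMK, the dTMP kinase, had the lowest CPM of the 9, from 24.0 to 29.1 CPM in sh_scramble -DHT, 27.4 to 35.2 CPM in sh_scramble +DHT, 25.1 to 29.2 CPM in sh_TMEFF2 -DHT and 34.9 to 39.9 CPM in sh_TMEFF2 +DHT, where only the last and the -DHT groups were free of overlap. It rose 1.40-fold in sh_TMEFF2 (log2 0.49, SE 0.11, adjusted p = 0.0117), with 0.23 in sh_scramble (SE 0.11, adjusted p = 0.14). Between the lines with DHT the values were 0.14 for DUT and 0.26 for DTYMK, neither past the limit (adjusted p = 0.306 and 0.123).

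CTPS1, the CTP synthetase, was the member that rose with DHT in both lines and had its highest group mean in sh_scramble +DHT. It was at 85.1, 82.5 and 87.0 CPM in sh_scramble -DHT and at 115.2, 98.6 and 100.5 CPM in sh_scramble +DHT (1.24-fold, log2 0.30, SE 0.08, adjusted p = 0.0157). In sh_TMEFF2 it was at 73.5, 69.3 and 76.5 CPM without DHT and at 93.7, 99.4 and 113.5 CPM with DHT (1.40-fold, log2 0.48, SE 0.08, adjusted p = 0.00316). Its 4 groups were free of overlap except that the +DHT groups overlapped and were -0.04 apart (SE 0.08, adjusted p = 0.828). The rise in sh_scramble missed the limit when libraries were scaled by size alone or when sh_scramble -DHT replicate 2 or sh_scramble +DHT replicate 1 was left out (highest adjusted p = 0.077).

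DCK, which also activates nucleoside drugs such as cytarabine and gemcitabine, was at 38.3, 52.2 and 49.7 CPM in sh_scramble -DHT, at 47.4, 61.9 and 58.2 CPM in sh_scramble +DHT, at 46.6, 36.4 and 52.4 CPM in sh_TMEFF2 -DHT and at 65.6, 66.6 and 75.3 CPM in sh_TMEFF2 +DHT. The first 3 groups overlapped and the sh_TMEFF2 +DHT libraries lay above all of them. DCK rose 1.53-fold with DHT in sh_TMEFF2 (log2 0.62, SE 0.15, adjusted p = 0.0165) and had a value of 0.26 in sh_scramble (SE 0.15, adjusted p = 0.219). With DHT it was 0.31 higher on the log2 scale in sh_TMEFF2 (SE 0.15, adjusted p = 0.181).

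**Figure D3:**
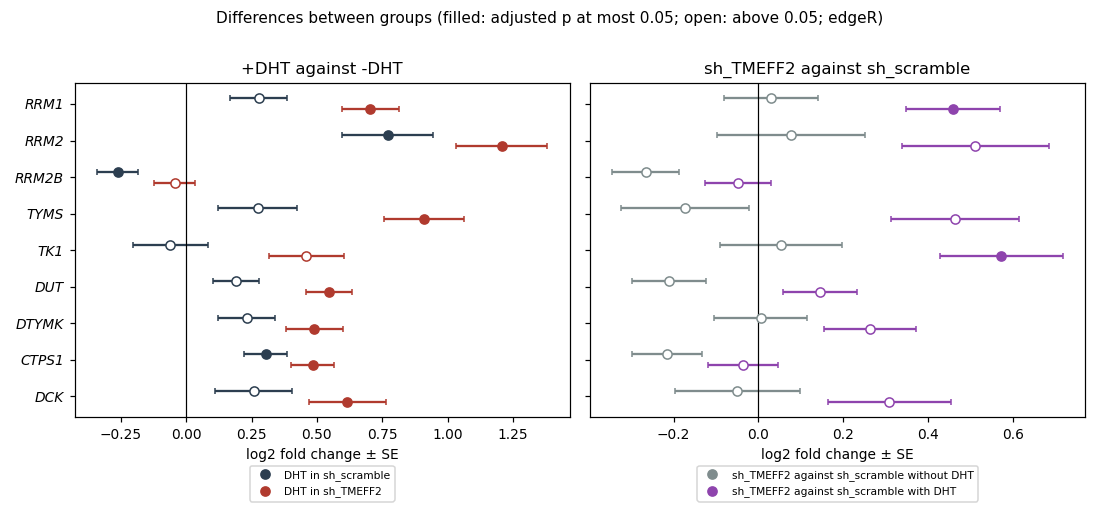
Log2 fold changes with their SE (horizontal axes) of the 9 genes, for +DHT against -DHT in each line on the left and for sh_TMEFF2 against sh_scramble at each DHT level on the right. Filled points passed the limit, which 7 genes did for DHT in sh_TMEFF2 and 2 genes did for the lines with DHT.

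The 9 enzymes were chosen with earlier results of these data known, so setting them against all genes is a description. In the main edgeR test the count for DHT was nearer the share of all genes in the control line than in sh_TMEFF2. None of the 9 differences between these responses passed that test. In sh_scramble 2 of the 9 genes were called higher, where 14.4% of all genes tested were, and 1 of 9 was called lower, where 12.6% were. With a limit of 1.5-fold added, RRM2 alone passed, against 5.45% of all genes called higher. In sh_TMEFF2, 7 of 9 were called higher, against 7.84% of all genes, none was called lower (5.21% of all genes; also none at an unadjusted p under 0.05 and none in DESeq2), and 4 of 9 (RRM1, RRM2, TYMS and DCK) passed with the 1.5-fold limit (3.28%). The median response of the 9 was 0.26 in sh_scramble and 0.54 in sh_TMEFF2, and that of all genes tested was -0.01 and -0.02. The 3 DHT libraries were all above the 3 without DHT for 3 of 9 genes in sh_scramble (21.3% of all genes) and for 8 of 9 in sh_TMEFF2 (15.6%).

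The lines without DHT gave no call among the 9 genes in edgeR, where 1.12% of all genes were called in either direction. At an unadjusted p under 0.05 there were 3 (RRM2B, DUT and CTPS1, each with all 3 sh_TMEFF2 libraries below the 3 of sh_scramble, an arrangement seen in 9.18% of all genes), against 13.5% of all genes, and DESeq2 called 1, RRM2B. With DHT 2 of 9 (RRM1 and TK1) were called higher in sh_TMEFF2, against 6.93% of all genes, and 5 of 9 (RRM1, RRM2, TYMS, TK1 and DCK) had all 3 sh_TMEFF2 libraries on top (15.5% of all genes). Under 6 of 8 other settings 4 of 9 were called, RRM2 and TYMS being added. With sh_scramble +DHT replicate 1 left out none of the 9 was called, with sh_scramble +DHT replicate 3 left out 1 was, and with sh_TMEFF2 -DHT replicate 3 left out 4 were.

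The DHT response in sh_TMEFF2 minus that in sh_scramble was above 0 for all 9 genes, from 0.18 for CTPS1 to 0.64 for TYMS, with a median of 0.36, while 50.9% of all genes tested had a value above 0 and their median was 0.01. In the gene lists described below it was above 0 for 12 of 12 S phase genes and 10 of 12 p53 targets. It was above 0 for 8 of 12 purine genes, 3 of 6 pyrimidine and folate genes and 5 of 17 kinase and salvage genes. None of the 9 passed the limit in edgeR (4.94% of all genes did in either direction), 4 had an unadjusted p under 0.05 (RRM1, TYMS, TK1 and DUT; 17.5% of all genes), and DESeq2 called 1, TYMS (adjusted p = 0.0364). The values of those 4 were 0.43 (SE 0.16, adjusted p = 0.159) for RRM1, 0.64 (SE 0.21, adjusted p = 0.123) for TYMS, 0.52 (SE 0.20, adjusted p = 0.196) for TK1 and 0.36 (SE 0.12, adjusted p = 0.14) for DUT. A larger response of these enzymes in sh_TMEFF2 was thus not shown for any of the 9 in edgeR with all libraries. Without sh_TMEFF2 -DHT replicate 3, TYMS (0.84, SE 0.18, adjusted p = 0.0222) and TK1 (0.75, SE 0.14, adjusted p = 0.015) passed.

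That library was the highest of its group for most of these genes, and libraries of other groups were as one-sided. Leaving it out removes the highest -DHT values of TYMS and TK1 in sh_TMEFF2, which by itself raises their fitted response there. Replicate 3 of sh_TMEFF2 +DHT, the highest of its group for both genes, stayed in. In sh_TMEFF2 -DHT, replicate 3 was the highest of the 3 for 8 of the 9 genes, RRM2B being its lowest, and for 12 of 12 genes of a reference list of replication licensing and S phase genes (MCM2, MCM3, MCM5, MCM6, MCM7, PCNA, CDC6, CDT1, GINS2, E2F1, CCNE2 and POLA1). In sh_TMEFF2 +DHT replicate 3 was highest for 8 of 9 genes, and replicate 1 was lowest for 7 of 9. Replicate 1 was also the lowest in sh_scramble +DHT for 6 of 9 and in sh_scramble -DHT for 5 of 9. In sh_TMEFF2 -DHT replicates 1 and 2 were each lowest for 4 of 9. Of the 12 S phase genes, replicate 1 was lowest for 11 in sh_scramble -DHT and 11 in sh_scramble +DHT. It was lowest for 11 of them in sh_TMEFF2 -DHT and 10 in sh_TMEFF2 +DHT. Enzymes of 1 library thus shared its deviation, and the 9 values are not 9 independent observations.

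The S phase reference list had 9 of 12 genes higher with DHT in sh_scramble (median 0.55) and 11 of 12 in sh_TMEFF2 (median 0.84), and all 12 had values above 0 in both lines. Of the 9 enzymes, 7 had a value above 0 in sh_scramble, the exceptions being RRM2B and TK1, and 8 in sh_TMEFF2, the exception being RRM2B. The summed level of the S phase list was 679.6 to 864.1 CPM in sh_scramble -DHT, 1012 to 1159 CPM in sh_scramble +DHT, 745.7 to 993.3 CPM in sh_TMEFF2 -DHT and 1303 to 1540 CPM in sh_TMEFF2 +DHT. CDC6, which loads the replicative helicase, rose by 0.97 (SE 0.12, adjusted p = 9.99e-05) in sh_scramble and by 1.16 (SE 0.12, adjusted p = 0.000286) in sh_TMEFF2. With DHT, 6 of 12 of these genes were higher in sh_TMEFF2 (median 0.40), among them MCM2 (0.56, SE 0.13, adjusted p = 0.0112) and POLA1, the catalytic subunit of DNA polymerase alpha (0.50, SE 0.10, adjusted p = 0.00486). Between the lines without DHT edgeR called 0 of 12, with 0 at an unadjusted p under 0.05 and 0 in DESeq2. For the difference of responses edgeR called 0 of 12, with 2 at an unadjusted p under 0.05 and 1 in DESeq2. All 12 differences were above 0 (median 0.29), as were those of all 9 enzymes. The part of the S phase genes' change in that of the 9 enzymes was not tested.

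The p53 targets (CDKN1A, MDM2, GDF15, SESN1, SESN2, TP53I3, ZMAT3, FDXR, DDB2, PHLDA3, TP53INP1 and BBC3) are given beside RRM2B. In sh_scramble 10 of 12 fell with DHT (median -0.67), including the stress-response genes SESN1 (-1.43, SE 0.16, adjusted p = 3.85e-05) and TP53INP1 (-1.21, SE 0.13, adjusted p = 2.69e-05). In sh_TMEFF2 3 of 12 were called lower (median -0.29), led by MDM2, the ubiquitin ligase of p53 (-1.39, SE 0.20, adjusted p = 0.0012). There 7 of 12 were lower at an unadjusted p under 0.05, and DESeq2 called 3 lower. Values were below 0 for 10 of 12 in sh_TMEFF2 and for 11 of 12 in sh_scramble. The summed level of the 12 was 1671 to 1777 CPM in sh_scramble -DHT, 947.7 to 1020 CPM in sh_scramble +DHT, 1403 to 1719 CPM in sh_TMEFF2 -DHT and 1115 to 1297 CPM in sh_TMEFF2 +DHT. Between the lines without DHT, MDM2 was higher (1.33, SE 0.20, adjusted p = 0.00799) and ZMAT3 lower (-0.53, SE 0.06, adjusted p = 0.00117) in sh_TMEFF2, and the other 10 did not pass in edgeR, while 5 of the 12 had an unadjusted p under 0.05 and DESeq2 called 1 higher and 2 lower. In sh_TMEFF2 against sh_scramble with DHT, edgeR called 4 of 12 higher and 1 lower (median 0.38). RRM2B differed there by -0.05 (SE 0.08, adjusted p = 0.745). The part of these genes' change in that of RRM2B was not tested.

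**Figure D4:**
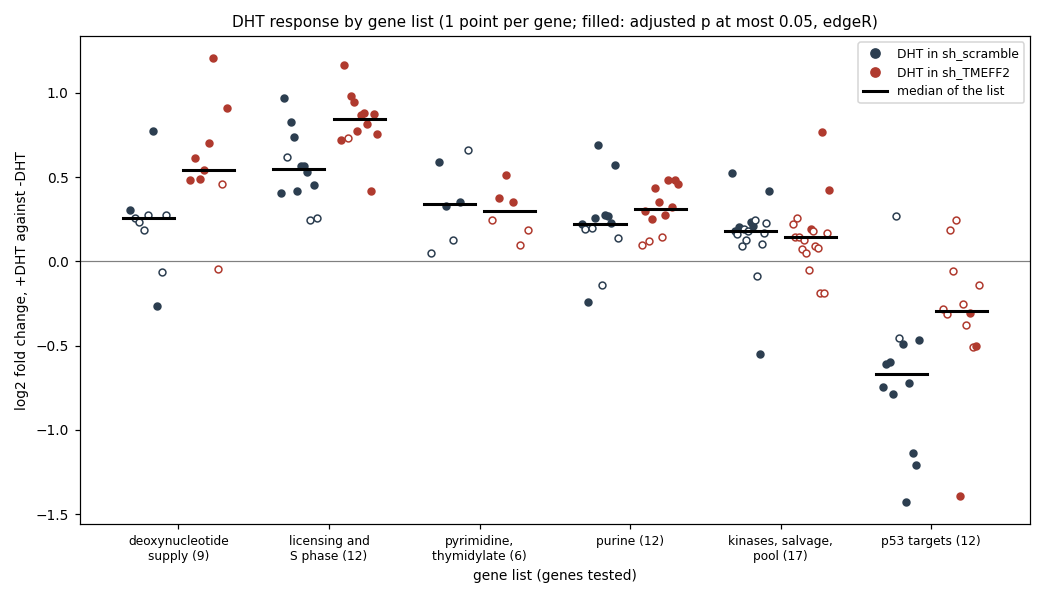
Log2 fold change with DHT (vertical axis) of every tested gene of 6 lists in sh_scramble and sh_TMEFF2, with the median of each list as a bar and filled points for genes past the limit. The medians of the S phase list were 0.55 and 0.84 and those of the p53 targets -0.67 and -0.29, with the 9 enzymes at 0.26 and 0.54.

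Upstream of the 9 enzymes, the genes of pyrimidine synthesis and the folate cycle (CAD, DHODH, UMPS, SHMT1, SHMT2 and MTHFD1) had 3 of 6 genes higher with DHT in sh_scramble (median 0.34) and 3 of 6 in sh_TMEFF2 (median 0.30). None was called lower in either line, and there was none lower at an unadjusted p under 0.05 or in DESeq2. MTHFD1 rose in both lines (0.33, adjusted p = 0.0252, in sh_scramble and 0.51, adjusted p = 0.00521, in sh_TMEFF2). DHODH, the mitochondrial step of pyrimidine synthesis, rose in sh_scramble (0.59, SE 0.11, adjusted p = 0.0018) and in sh_TMEFF2 (0.38, SE 0.11, adjusted p = 0.0442) and was lower in sh_TMEFF2 than in sh_scramble with DHT (-0.37, SE 0.11, adjusted p = 0.04), as was SHMT2 (-0.28, SE 0.08, adjusted p = 0.0397).

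Of 12 genes of the purine pathway, 7 were higher with DHT and ATIC was lower (-0.24, SE 0.05, adjusted p = 0.00582) in sh_scramble (median 0.22), and 9 were higher in sh_TMEFF2 (median 0.31). PRPS1, which makes the ribose precursor of all nucleotides, rose by 0.57 (SE 0.07, adjusted p = 4.72e-05) and 0.48 (SE 0.07, adjusted p = 0.001), and PAICS by 0.28 (SE 0.05, adjusted p = 0.000671) and 0.27 (SE 0.05, adjusted p = 0.0027). With DHT, ATIC (0.37, SE 0.05, adjusted p = 0.000618) and IMPDH2 (0.29, SE 0.05, adjusted p = 0.0017) were higher in sh_TMEFF2 and IMPDH1, the other IMP dehydrogenase, was lower (-0.30, SE 0.07, adjusted p = 0.0117). Between the lines without DHT edgeR and DESeq2 each called 0 genes of either pathway, with 1 purine gene and 0 pyrimidine genes at an unadjusted p under 0.05.

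Among 17 tested genes of nucleotide kinases, salvage and pool control (of 18 listed, CDA being too low to test), 6 were higher and 1 lower with DHT in sh_scramble (median 0.18), and 3 were higher in sh_TMEFF2 (median 0.14). The gene that fell was SAMHD1, the hydrolase that breaks down deoxynucleotide triphosphates. It was at 67.0, 67.3 and 64.2 CPM in sh_scramble -DHT and at 46.3, 43.4 and 45.9 CPM in sh_scramble +DHT (log2 -0.55, SE 0.07, adjusted p = 5.61e-05), and at 69.2, 78.5 and 74.9 CPM in sh_TMEFF2 -DHT and 62.4, 66.9 and 66.4 CPM in sh_TMEFF2 +DHT. With DHT it was higher in sh_TMEFF2 (0.53, SE 0.07, adjusted p = 0.000148). SLC29A1, the equilibrative nucleoside transporter, rose with DHT in sh_TMEFF2 from 25.3, 23.4 and 33.0 CPM to 38.8, 51.5 and 48.8 CPM (0.77, SE 0.14, adjusted p = 0.00365) and was also higher there than in sh_scramble with DHT (0.60, SE 0.13, adjusted p = 0.00971). The uridine-cytidine kinase UCK2 rose by 0.42 in sh_scramble (adjusted p = 0.00628) and by 0.43 in sh_TMEFF2 (adjusted p = 0.0127). Between the lines with DHT, 2 of the 17 were called higher and 2 lower in sh_TMEFF2. TK2 was among the lower (-0.26, SE 0.07, adjusted p = 0.0259).

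Compared per kb of transcript, TYMS was the most abundant of the 9 in each group, at means of 54.7 to 102.8 CPM per kb, although its libraries overlapped those of TK1 in sh_scramble -DHT, of RRM1 in both +DHT groups and of RRM1 and TK1 in sh_TMEFF2 -DHT. RRM1 and TK1 followed in sh_scramble -DHT, at 50.7 and 51.0 CPM per kb with overlapping libraries. In sh_TMEFF2 +DHT, RRM2 (74.2 ± 9.37 CPM per kb) overlapped both RRM1 (84.4 ± 8.34 CPM per kb) and TK1 (72.7 ± 2.46 CPM per kb), which did not overlap each other. RRM2B, DUT, DTYMK and CTPS1 lay between 22.2 and 36.9 CPM per kb in all groups, and DCK had the lowest mean in 3 groups and was 27.6 CPM per kb in sh_TMEFF2 +DHT, above the 24.1 CPM per kb of RRM2B there. These levels used the representative transcript of the annotation. With the longest transcript CTPS1 was at 13.7 to 19.7 CPM per kb in place of 25.7 to 36.9 CPM per kb. CTPS1 then had the lowest mean of the 9 in every group, below DCK. TK1 was at 41.6 to 61.9 CPM per kb in place of 48.9 to 72.7 CPM per kb.

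The genes whose profiles over the 12 libraries were most like those of the enzymes are given as a description, since the libraries share groups and repeats. The nearest to RRM2 was MCM6 (Pearson r = 0.994 of log2 CPM), a subunit of the replicative helicase, followed by ORC6 and ZW10. The nearest to RRM1 were CSE1L (r = 0.989), MELK and TMPO, to TYMS RACGAP1 (r = 0.988), NCAPG2 and NCAPG, and to DTYMK OIP5 (r = 0.985), POLQ and SMC1A. DCK was nearest to RAD51AP1 (r = 0.979), LIN9 and MAD2L1, DUT to SCML1 (r = 0.964), ATAD5 and CENPI, and TK1 to KIF2C (r = 0.933), CENPH and POLD3. CTPS1 was nearest to TMEM161B (r = 0.96), ERLIN1 and PPIL1, and RRM2B to CCDC85A (r = 0.935) and CYLD.

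On GRCh38, 2 of the genes share a chromosome, RRM2 (chr2:10120698-10211725, plus strand) and DTYMK (chr2:241675747-241686944, minus strand). RRM1 is at chr11:4094707-4138932 (plus), TYMS at chr18:657653-673578 (plus), TK1 at chr17:78174091-78187233 (minus), DUT at chr15:48331011-48343373 (plus), CTPS1 at chr1:40979300-41012565 (plus) and DCK at chr4:70992538-71030914 (plus). Annotated genes overlap 5 of the 9, which are RRM1, RRM2, TYMS, DUT and DCK, and MOB1B overlaps DCK on the same strand. The 13 listed pseudogenes of RRM2, TYMS and DUT were at most at 0.39 CPM. The study's qPCR primers for RRM2 are printed to place that assay on the transcript measured here. Both lie in coding sequence of ENST00000304567, in exon 8 (chr2:10128892-10128912) and exon 9 (chr2:10129061-10129080), 101 nucleotides apart from end to end.
RRM2 forward primer: ACACAAACCATCGGAGGAGAG
RRM2 reverse primer: TCCCAATGAGCTTCACAGGC

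Since 8 of the 9 genes had a higher fitted level with DHT in sh_TMEFF2, their promoters were searched for 3 kinds of element known from S phase and cell cycle genes. The words were CCAAT (the NF-Y box), the E2F words TTTCCCGC, TTTCGCGC, TTTGCCGC and TTTGGCGC, and the cell cycle homology words TTTGAA and TTCGAA, on both strands. RefSeq windows of GRCh38.p14 were matched for 8 of the 9 genes, RRM2B having none, and the 250 bases before the start nearest to the representative transcript were read. A CCAAT word was present in 4 of 8 (33.0% of 27305 promoters), and 3 of 8 had 2 or more (10.0%). An E2F word was present in 1 of 8 (2.79%), and a cell cycle homology word in 2 of 8, RRM1 and DTYMK (14.6%). The shares over all promoters used the first listed window of each gene, so the rule for choosing a window differed from that for the enzymes. The CCAAT and E2F words are shown in capitals with 10 bases on each side, on the strand of the gene, with the position of their first base counted back from the start (-1 is the base before it).
RRM2 at -123, chr2:10122606-10122630, plus strand: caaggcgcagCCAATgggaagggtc
RRM2 at -93, chr2:10122636-10122660, plus strand: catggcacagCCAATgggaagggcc
RRM2 at -66, chr2:10122663-10122687, plus strand: ggcaccaaagCCAATgggaagggcc
TK1 at -77, chr17:78187115-78187139, minus strand: ccgggcgctgATTGGccccatggcg
TK1 at -46, chr17:78187084-78187108, minus strand: ccggctcgtgATTGGccagcacgcc
DTYMK at -92, chr2:241686893-241686917, minus strand: ccggccccggCCAATcccttcgaat
DTYMK at -24, chr2:241686825-241686849, minus strand: ttgacgccggCCAATgggagctccg
RRM1 at -28, chr11:4094647-4094671, plus strand: atgtccatatCCAATggggcccatg
TYMS at -39, chr18:657604-657631, plus strand: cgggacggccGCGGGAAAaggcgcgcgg

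In TK1 and TYMS the words lie on the opposite strand, so they read ATTGG and GCGGGAAA here. The 3 CCAAT words of RRM2 have the same orientation and are followed by nearly the same letters. DUT, CTPS1 and DCK, all called higher with DHT in sh_TMEFF2, hold none of these words before their representative start. Other RefSeq starts were looked at as well, and the shares over all promoters do not cover several starts of a gene. Those of DUT at -5 and -334 from its representative start, and those of TK1 and CTPS1, hold none of the words. The other start of RRM2 has 1 CCAAT word. A further DUT start lies 768 bases downstream. It is preceded by 2 cell cycle homology words and by 2 E2F words, which are shown.
DUT at -42, chr15:48332145-48332172, plus strand: ggcggggctgGCGGGAAAtttcggtttt
DUT at -27, chr15:48332160-48332187, plus strand: aaatttcggtTTTGGCGCgctccctgcg
A match of letters is a description of the sequence, and binding was not measured in these libraries.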

How the data were processed

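RNA-seq of 12 LNCaP libraries was used. The authors checked reads with FastQC, trimmed them with Trimmomatic, quantified 75 bp paired-end reads with kallisto 0.42.3 on GRCh38, and deposited estimated counts per gene, which need not be whole (expected counts scaled by library size and transcript length). Each library had 2 columns, which were summed and rounded. The number of columns without a sample was 0. The columns of a library differed less than replicates did (median chi-square over its expectation 2.48 to 2.77, against 4.07 to 5.04).

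Counts were analysed in R 4.3.3 with edgeR 4.0.16 (TMM, factors 0.955 to 1.037, filterByExpr, 15419 genes tested, 1 coefficient per group). The steps were tested on simulated data. Alternatives were DESeq2 1.42.0, limma 3.58.1 (voom), other filters and scalings, the 6 libraries of a comparison, the replicate number as a block, and each library left out. Levels per kb used GENCODE transcript lengths. The named genes were the 9 enzymes, TMEFF2, the markers, up to 3 genes with the smallest p per list and comparison, and the 3 most correlated genes of each enzyme. SAMHD1 and SLC29A1 levels were added for display. The results of some list and marker genes are not reported here. The 9 enzymes and the gene lists were chosen with earlier results of these data known. P-values measure the spread between separate treatments from 2 transductions. Windows before start sites were from RefSeq.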

Additional observations from a re-analysis of the deposited data

Results flagged for a closer look

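For 8 genes of the pathway lists and 1 luminal marker the DHT response differed between the lines by edgeR's interaction test. Among purine genes the difference (response in sh_TMEFF2 minus response in sh_scramble, log2) was 0.36 for ATIC (adjusted p = 0.0186) and 0.28 for IMPDH2 (adjusted p = 0.0371). SAMHD1, the deoxynucleotide triphosphate hydrolase, had a difference of 0.36 (adjusted p = 0.0399). Among p53 targets the difference was 0.78 for DDB2 (adjusted p = 0.00717), 0.73 for FDXR (adjusted p = 0.00759), 0.71 for TP53INP1 (adjusted p = 0.0451), 0.33 for ZMAT3 (adjusted p = 0.0421) and 1.05 for SESN1 (adjusted p = 0.0186). The luminal marker FOLH1 had a difference of 0.50 (adjusted p = 0.000873). SESN1 was at 423.9, 363.1 and 320.2 CPM in sh_scramble -DHT and at 158.3, 137.2 and 115.8 CPM in sh_scramble +DHT. In sh_TMEFF2 it was at 283.0, 240.1 and 215.5 CPM without DHT and at 233.2, 179.8 and 155.9 CPM with DHT, and these groups overlapped.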

How the results depend on the processing

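Of the 9 enzymes, 3 were called for DHT in sh_scramble, and 5 with the replicate block, which added RRM1 and DTYMK. For DHT in sh_TMEFF2 7 were called, and DESeq2 called 8, which added TK1. For the lines without DHT 0 were called and DESeq2 called 1. For the lines with DHT 2 were called, 4 under DESeq2, the 5 CPM filter, no filter, library size only, limma-voom and the 6 libraries of the comparison, and 5 with the replicate block. With the 1.5-fold limit added that count went from 0 to 1 under the 5 CPM filter and under library size only. For the difference of responses it went from 0 to 1 under DESeq2. Leaving out single libraries gave 2 to 3 calls for DHT in sh_scramble (1 to 1 with the 1.5-fold limit), 5 to 8 for DHT in sh_TMEFF2 (3 to 6, 5 and 3 without sh_TMEFF2 +DHT replicate 3), 0 to 0 for the lines without DHT, 0 to 4 for the lines with DHT (0 to 1) and 0 to 2 for the difference. Without sh_TMEFF2 -DHT replicate 3 the counts for DHT in sh_TMEFF2 were 8 and 6. Same-numbered libraries correlated weakly in their deviations over all genes tested (r from -0.002 to 0.169, over 0.1 in 3 of 12 pairs). The study's methods name no block, so the main test took no pairing and the replicate block is given as an alternative. Over all genes tested, DHT in sh_scramble gave 2550 higher and 2266 lower with the block. Without the block there were 2217 and 1940. Most libraries matched their own number best, the exceptions being replicates 1 and 2 of the lines without DHT. Replicate 1 was also lowest for 10 or 11 of the 12 S phase genes in every group. Whether the numbers pair the libraries was thus not settled.

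Values near 0 changed sign. With library size only, RRM2B with DHT between the lines was 0.0114, CTPS1 0.0235, DTYMK without DHT -0.0053, and the median difference of responses of the kinase and salvage list 0.0246 and of the pyrimidine and folate list 0.0533. Over left-out libraries, the lines without DHT ranged from -0.0503 to 0.116 for RRM1, -0.088 to 0.205 for RRM2, -0.161 to 0.184 for TK1, -0.073 to 0.0685 for DTYMK and -0.175 to 0.0843 for DCK. With DHT they ranged from -0.0845 to 0.0316 for RRM2B and -0.106 to 0.0468 for CTPS1. The DHT response ranged from -0.102 to 0.0101 for RRM2B in sh_TMEFF2 and from -0.146 to 0.0714 for TK1 in sh_scramble. None of these was past the limit, and the cause was not tested. DTYMK and DCK for DHT in sh_TMEFF2 each missed the limit in 2 of 12 fits without a library, RRM1 with DHT between the lines in 1 and TK1 in 2. Depth set no limit for the enzymes, whose lowest count in a library was 521.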
